A study of Mus musculus with 8 samples.

Results

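The 7 genes examined here, H2afx, H2afz, H2afv, H2afy, H3f3a, H3f3b and H1f0, encode histones that are also made outside S phase, from polyadenylated transcripts. They were chosen by gene symbol, with no cut-off on a measured value but with earlier results of these data known. All 7 were found among the 19685 genes of the LT-HSC table, the 18904 genes of the MPP table and the 17893 genes common to both. Poly(A) RNA had been sequenced from 8 libraries of flow-sorted mouse bone marrow, 2 for each population and genotype: KO and WT libraries of LT-HSC, and KO and WT libraries of MPP. LT-HSC are long-term hematopoietic stem cells, able to renew themselves and supply all blood lineages over a lifetime, and MPP are multipotent progenitors, which renew themselves for a shorter time. KO stands for Tet1 KO and WT for wild type. Tet1 is an enzyme that oxidizes 5-methylcytosine in DNA. All 4 groups came from mice studied 20 weeks after a marrow transplant, with Tet1 KO marrow for the KO groups and WT marrow for the WT groups. The labels give an age of 6 months and spell the strain CD57BL/6. The part of Tet1 that was deleted, the sort gates, the number of mice behind a library and the treatment of cells left from the recipient are not stated in the labels. Nothing in the labels says that the 2 libraries of a group came from separate mice, so p-values measure the spread between libraries, which may be technical.

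Most histones are produced in bulk during DNA replication from clustered genes whose transcripts end in a stem-loop in place of a poly(A) tail. The replication-independent variants are placed into chromatin throughout the cell cycle and in resting cells. H2AX is phosphorylated around DNA breaks, H2A.Z marks promoters and enhancers, macroH2A carries a large extra domain and is found on repressed chromatin, H3.3 replaces H3 at active genes and at repeats, and H1.0 is a linker histone that builds up in cells that divide little or have differentiated. H3.3 is encoded by H3f3a and H3f3b, and H2A.Z by H2afz and H2afv, so each of these proteins has a pair of source genes.

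Depth, as the sum of counts, ran over 4976459 to 5479731 in the LT-HSC libraries and 11928659 to 12504581 in the MPP libraries, from 10000 LT-HSC or 100000 MPP per library. LT-HSC and MPP therefore also differed in input and depth. For Tet1 itself the LT-HSC KO libraries gave 336 and 379 counts and the LT-HSC WT libraries 332 and 428 (log2 fold change -0.09, SE 0.19, adjusted p = 0.765). Here and below, adjusted p is from edgeR's quasi-likelihood test with Benjamini-Hochberg adjustment over all genes tested, fold changes are KO over WT or LT-HSC over MPP, and a gene is called when the adjusted p is under 0.05. The MPP KO libraries gave 765 and 855 Tet1 counts and the MPP WT libraries 1207 and 1323 (-0.62, SE 0.09, adjusted p = 0.0282). A count over the whole gene does not show whether the deleted part is missing. Counts of Y-linked genes (Uty, Kdm5d, Eif2s3y, Ddx3y) were below WT in the KO libraries of each population, so sex and genotype cannot be told apart. In WT, 10 of 12 LT-HSC markers were higher and 6 of 6 MPP markers lower in LT-HSC than in MPP. In LT-HSC KO, summed erythroid markers reached 3815 and 2898 CPM (counts scaled to the library total), against 634 and 464 CPM in LT-HSC WT, and all 10 in the table were higher. Summed stromal and endothelial markers reached 737 and 536 CPM in LT-HSC KO, against 98.7 and 101 CPM in LT-HSC WT. Col1a1 alone had 314 and 225 CPM of this in LT-HSC KO. Of these 10 markers 8 were called higher, while the endothelial markers Pecam1 (-0.33) and Kdr (0.33) were not called. Counts in long, otherwise near-silent genes were also higher in LT-HSC KO, at 0.351 and 0.308 counts per kb of gene span, against 0.0231 and 0.0285 in LT-HSC WT. The part of all these in the results below was not tested unless a value is given.

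The 7 genes differed widely in level. Levels between genes were set side by side as CPM per kb of transcript, with a range where a gene has transcripts of several lengths. In LT-HSC KO the order ran from H3f3b (221 to 279 CPM per kb) through H2afy (158 to 167) and H2afx (103) to H1f0 (72.2), with H2afz at 69.6 to 170, H2afv at 25.8 to 81.1 and H3f3a at 11.0 to 43.1. The H3f3a level leaves out counts given to its pseudogenes, described below. The H2afz level is open to splitting of counts with Tmcc1, also described below. In LT-HSC WT, H3f3b (316 to 399) again stood above H2afy (249 to 263). In MPP the order of these 2 was the other way: H2afy reached 642 to 679 CPM per kb in MPP KO and 824 to 872 in MPP WT, against 225 to 284 and 214 to 270 for H3f3b. In both LT-HSC groups the range of H2afz took in the levels of H2afx and H1f0, so their order was not resolved there. In MPP the order H2afx, H2afz, H1f0 was resolved: H2afx had 181 CPM per kb in MPP KO and 214 in MPP WT, H2afz 69.7 to 170 and 78.2 to 191, and H1f0 46.8 and 60.5. The range of H2afv overlapped those of H2afz and H3f3a in all 4 groups. H1f0 was counted in the authors' table over a single span of 538 bp at chr15:78859152-78859689 (mm9), shorter than its annotated transcript of 2055 bases, so its level per kb rests on a partial gene model.

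**Figure D1:**
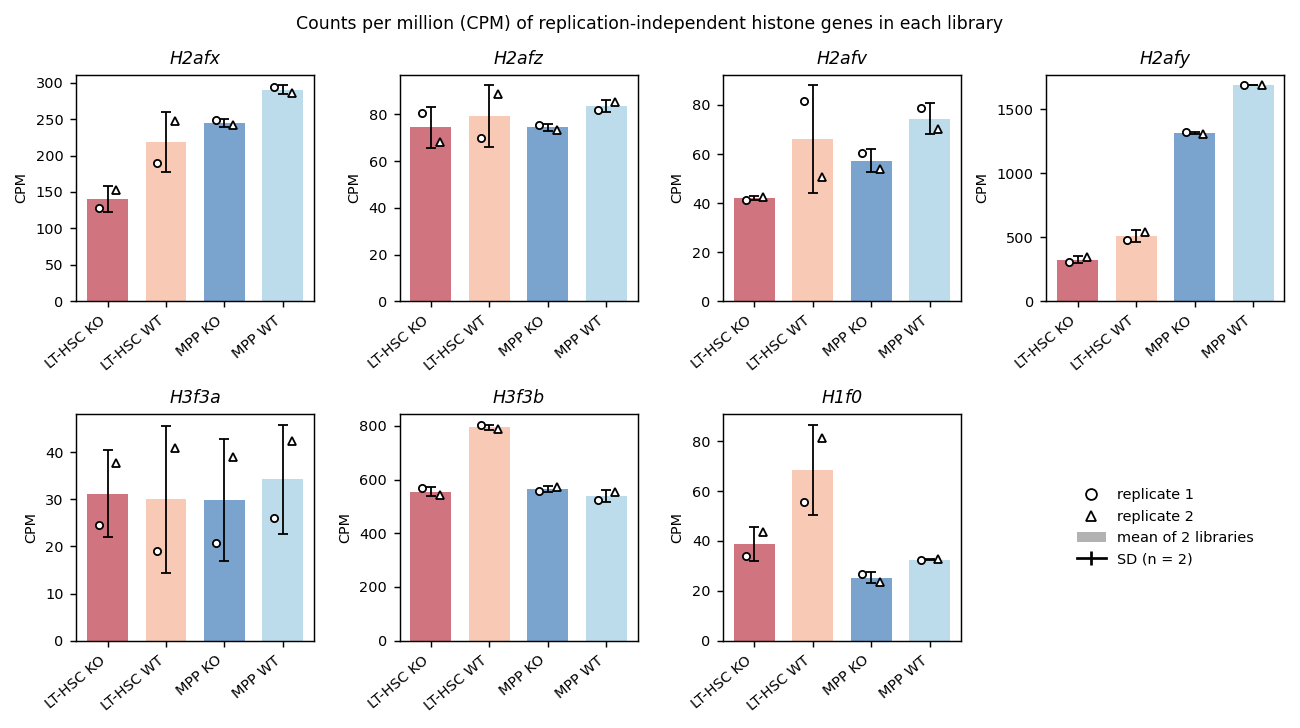
CPM (vertical axis, from 0, a separate scale for each gene) of the 7 genes in KO and WT libraries of LT-HSC and then of MPP; bars are means, whiskers SD (n = 2 libraries) and open symbols the libraries. H2afy separated MPP from LT-HSC, H3f3b was highest in the 2 LT-HSC WT libraries, and H3f3a differed more between replicates 1 and 2 than between groups.

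In LT-HSC, 4 of the 7 genes were lower in KO than in WT and 0 were higher, among 15684 genes tested. They were H2afx, H2afy, H3f3b and H1f0, and their levels were 1.43 to 1.76 times lower. Of all genes tested, 10.9% were lower and 22.5% higher, 33.4% in all. Among the 3960 abundant genes, with a mean log2 CPM above 6, 18.0% were lower and the median log2 fold change was -0.18, so abundant genes as a group sat below the median of all genes, 0.03. The median over the 7 genes was -0.64. In 5 of the 7 genes, both KO libraries lay below both WT libraries, which was so for 29.4% of all genes tested; KO libraries above WT libraries, as in none of the 7, were found for 36.4%.

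H2afy encodes macroH2A1, the histone with an attached macrodomain that can bind ADP-ribose. It lies at chr13:56174980-56237722 (mm9). It had 304 and 342 CPM in LT-HSC KO, against 478 and 540 CPM in LT-HSC WT. Both KO libraries were below both WT libraries, with a gap wider than the distance between replicates. The log2 fold change was -0.66 (SE 0.15, adjusted p = 0.0122), or 1.58 times lower. H2afy was the 1 gene of the 7 still past the threshold when changes were taken relative to the median of abundant genes (-0.47).

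H1f0, the gene of linker histone H1.0, had 34.0 and 43.7 CPM in LT-HSC KO, against 55.7 and 81.4 CPM in LT-HSC WT. The groups did not overlap, but the 2 WT libraries differed by more than the gap between groups. The log2 fold change was -0.81 (SE 0.22, adjusted p = 0.0203). H1f0 showed the lowest fold change of the 7 and was the 1 member with a false discovery rate under 0.05 in the authors' deposited table for LT-HSC, 0.0341. The other 6 members had rates of 0.0846 to 0.918 in the authors' deposited table.

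H2afx, at chr9:44142798-44144154 (mm9), encodes the H2A form that ATM-family kinases phosphorylate at DNA breaks. It had 128 and 153 CPM in LT-HSC KO, against 190 and 248 CPM in LT-HSC WT. Both KO libraries were the lower ones, and the log2 fold change was -0.64 (SE 0.17, adjusted p = 0.0203). H2afx shared 9.66% of its 50-base windows with other annotated genes, mainly replication-dependent H2A genes, so a small part of its counts could be split with them.

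H3f3b, at chr11:115883226-115889276 (mm9), had 568 and 543 CPM in LT-HSC KO, against 802 and 789 CPM in LT-HSC WT. The replicates lay close together in each group and the groups were well apart. The log2 fold change was -0.52 (SE 0.16, adjusted p = 0.0403). The other H3.3 gene, H3f3a, had 24.6 and 37.7 CPM in LT-HSC KO, against 19.0 and 41.0 CPM in LT-HSC WT, and its KO libraries lay between its WT libraries (0.07, SE 0.34, adjusted p = 0.898).

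The H2A.Z genes were not called in LT-HSC. Counts of H2afz can be split with Tmcc1, as described below. H2afz (chr3:137527451-137529886, mm9) had 80.6 and 68.2 CPM in LT-HSC KO, against 70.1 and 88.6 CPM in LT-HSC WT, and the groups overlapped (-0.09, SE 0.18, adjusted p = 0.756). H2afv (chr11:6327229-6344446, mm9) had 41.4 and 42.7 CPM in LT-HSC KO, against 81.6 and 50.6 CPM in LT-HSC WT. Its KO libraries were the lower ones, but the 2 WT libraries were far apart (-0.67, SE 0.26, adjusted p = 0.0845). H2afv passed the threshold under 3 of 13 alternatives. Over all 13 its log2 fold change ran from -1.05, without LT-HSC WT replicate 2, to -0.23.

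The 4 calls in LT-HSC depended on both KO libraries: without LT-HSC KO replicate 1 or without LT-HSC KO replicate 2, 0 of the 7 genes passed, at log2 fold changes that stayed negative for H2afx, H2afy, H3f3b and H1f0 (-0.45 to -0.97). H3f3b was also past the threshold no longer without LT-HSC WT replicate 1 (-0.47, adjusted p = 0.12), nor H2afx without LT-HSC WT replicate 2 (-0.53, adjusted p = 0.052). Relative to the median of abundant genes, the number called was 1, and it was 0 after the counts per kb seen in near-silent genes were subtracted from each gene by its span, a step that took 6.33% and 5.98% of the counts of the LT-HSC KO libraries and 0.374% and 0.519% of those of LT-HSC WT. After it the 4 genes had log2 fold changes of -0.34 to -0.63, as they did relative to abundant genes. For the members themselves that background came to at most 3.49% of a gene's count in any library. In these bulk libraries, fewer cells of a type and less RNA per cell cannot be told apart.

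**Figure D2:**
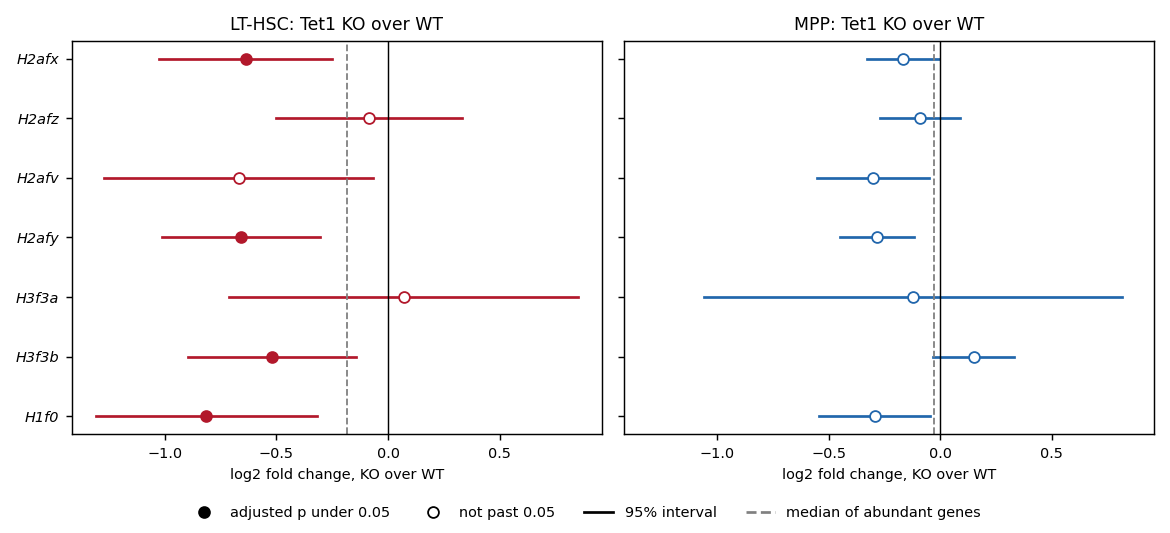
Log2 fold change of KO over WT (horizontal axis) of the 7 genes in LT-HSC (left) and MPP (right), with 95% intervals from the edgeR fit of 2 against 2 libraries; filled points passed an adjusted p of 0.05 and the dashed line is the median of abundant genes (-0.18 in LT-HSC and -0.03 in MPP). In LT-HSC, H2afx, H2afy, H3f3b and H1f0 were past the threshold below 0, and in MPP none of the 7 was.

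In MPP, 0 of the 7 genes were called between KO and WT by edgeR's quasi-likelihood test, and 0 by DESeq2. Of all 14902 genes tested in edgeR, 2.46% were called lower and 4.74% higher, 7.2% in all. An unadjusted p under 0.05 was found in edgeR for 4 of the 7 genes and for 26.4% of all genes tested. The result depended on the fit. Scaling by library size alone called H2afy. A replicate block, which treats libraries with the same number as pairs, called 5 of the 7 genes (H3f3b higher, and H2afx, H2afv, H2afy and H1f0 lower). The block also called far more genes in all, and the labels do not say that the numbers mark pairs. Replicates agreed more closely than in LT-HSC, and for 5 of the 7 genes both KO libraries lay below both WT libraries, which was so for 37.8% of all genes tested. H3f3b was the 1 member with both KO libraries above, which was so for 20.9% of all genes. Markers of other cells were higher in MPP KO too: granulocyte and monocyte markers summed to 1871 and 1861 CPM in MPP KO, against 1071 and 1045 CPM in MPP WT, with 5 of 8 tested called higher. Erythroid markers summed to 933 and 813 CPM in MPP KO, against 609 and 523 CPM in MPP WT, with 6 of 10 called. B lineage markers summed to 491 and 496 CPM in MPP KO, against 394 and 381 CPM in MPP WT, with 3 of 7 called. Their part in the MPP values of the 7 genes and of the lists was not tested.

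H2afy came closest to the threshold in MPP, with 1319 and 1307 CPM in MPP KO, against 1686 and 1685 CPM in MPP WT (-0.28, SE 0.07, adjusted p = 0.0696). H1f0 had 26.7 and 23.6 CPM in MPP KO, against 32.5 and 32.6 CPM in MPP WT (-0.29, SE 0.10, adjusted p = 0.142). H2afv had 60.6 and 54.0 CPM in MPP KO, against 78.8 and 70.0 CPM in MPP WT (-0.30, SE 0.10, adjusted p = 0.138). The KO libraries were the lower ones for all 3 genes. H2afx had 249 and 241 CPM in MPP KO, against 295 and 286 CPM in MPP WT (-0.17, SE 0.06, adjusted p = 0.182). H2afz had 75.6 and 73.4 CPM in MPP KO, against 81.8 and 85.5 CPM in MPP WT (-0.09, SE 0.07, adjusted p = 0.473). For these 5 genes the gap between KO and WT libraries was wider than the distance between replicates of either group, without passing the adjustment over all genes. H3f3b had 558 and 574 CPM in MPP KO, against 523 and 554 CPM in MPP WT (0.15, SE 0.07, adjusted p = 0.26). The 95% intervals reached -0.33 for H2afx, -0.27 for H2afz and 0.33 for H3f3b at their far ends. H3f3a had 20.7 and 39.0 CPM in MPP KO, against 26.1 and 42.5 CPM in MPP WT, with an interval from -1.06 to 0.82, and a change of that size was not detectable.

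Whether the genotype contrast differed between LT-HSC and MPP was tested with the interaction term over all 8 libraries. H3f3b was the 1 member called: its log2 fold change of KO over WT was lower in LT-HSC than in MPP by 0.68 on the log2 scale (interaction -0.68, SE 0.14, adjusted p = 0.0128). Among all 16551 genes, 8.5% were called in that direction and 13.6% in the other. H3f3b had its highest level in the LT-HSC WT libraries, and the other 6 libraries lay within 523 to 574 CPM. Its call ended without any 1 of the 4 MPP libraries, with adjusted p-values of 0.0501 to 0.0839 and fold changes of -0.63 to -0.72. H2afx (-0.48, adjusted p = 0.102), H2afy (-0.38, adjusted p = 0.101), H1f0 (-0.53, adjusted p = 0.193) and H2afv (-0.37, adjusted p = 0.421) were not past the threshold. A different response in the 2 populations was thus not shown for them in this fit. With the replicate block, H2afx and H2afy were called as well, among more genes in all than without it. H2afx passed without LT-HSC WT replicate 1 (-0.64, adjusted p = 0.0373) and H2afv without LT-HSC WT replicate 2 (-0.71, adjusted p = 0.029).

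Between the populations, H2afy showed the widest difference of the 7 genes. In WT it was lower in LT-HSC, at 478 and 540 CPM, against 1686 and 1685 CPM in MPP (log2 fold change -1.71, SE 0.14, adjusted p = 0.000562), or 3.27 times lower. In KO it was 4.49 times lower in LT-HSC, at 304 and 342 CPM, against 1319 and 1307 CPM in MPP (-2.17, SE 0.14, adjusted p = 2.57e-05). H2afy kept this call under all 13 alternatives tried in each genotype, at -1.69 to -1.78 in WT and -1.93 to -2.26 in KO. These contrasts share libraries with the contrasts of KO and WT above, and population, cell input and depth cannot be told apart in them.

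In the WT libraries, 3 of the 7 genes were called between LT-HSC and MPP, 2 higher and 1 lower in LT-HSC, where 17.4% of 14660 genes were called higher and 16.9% lower, 34.3% in all. The groups did not overlap for 2 genes higher in LT-HSC (34.4% of all genes) and 2 lower (36%). Beside H2afy, the called genes were H1f0 and H3f3b. H1f0 had 55.7 and 81.4 CPM in LT-HSC WT, against 32.5 and 32.6 CPM in MPP WT (1.08, SE 0.18, adjusted p = 0.00728), and stayed past the threshold under all 13 alternatives (0.82 to 1.27). H3f3b had 802 and 789 CPM in LT-HSC WT, against 523 and 554 CPM in MPP WT (0.58, SE 0.13, adjusted p = 0.0206). Its call ended without MPP WT replicate 1 (0.52, adjusted p = 0.269) or without MPP WT replicate 2 (0.63, adjusted p = 0.183). H2afx, at 190 and 248 CPM in LT-HSC WT against 295 and 286 CPM in MPP WT, was below the MPP libraries without passing (-0.39, SE 0.14, adjusted p = 0.0702). H2afx passed under 3 of 13 alternatives and H2afv under 1 of 13. Without LT-HSC WT replicate 2, H2afx was at -0.57, and without LT-HSC WT replicate 1, H2afv was at -0.61. H2afz and H3f3a overlapped between the populations, and so did H2afv.

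In the KO libraries, 3 of the 7 genes were lower in LT-HSC than in MPP and 0 higher, where 23.6% of 16150 genes were lower and 27.2% higher, 50.8% in all. The groups did not overlap for these 3 genes (31.3% of all genes lower) and for H1f0, which was higher (43.5%). H2afx had 128 and 153 CPM in LT-HSC KO, against 249 and 241 CPM in MPP KO (-0.95, SE 0.13, adjusted p = 0.000889). H2afv had 41.4 and 42.7 CPM in LT-HSC KO, against 60.6 and 54.0 CPM in MPP KO (-0.59, SE 0.13, adjusted p = 0.00865). The call on H2afx held under all 13 alternatives, while that on H2afv held under 8 of 13. Among those that ended the H2afv call was scaling relative to abundant genes (-0.35, adjusted p = 0.0655). So did leaving out LT-HSC KO replicate 1, LT-HSC KO replicate 2 or MPP KO replicate 1. Over the 4 fits that left out 1 library, its log2 fold change was -0.68 to -0.53. H1f0 had 34.0 and 43.7 CPM in LT-HSC KO, against 26.7 and 23.6 CPM in MPP KO (0.48, SE 0.18, adjusted p = 0.0549), and passed under 6 of 13 alternatives, among them RLE size factors (0.50, adjusted p = 0.0402). Over all 13 its adjusted p ran from 0.000729 to 0.252 and its log2 fold change from 0.29 to 0.72. Abundant genes had a median of -0.24 in this contrast. H3f3b, called higher in LT-HSC in WT, had 568 and 543 CPM in LT-HSC KO, against 558 and 574 CPM in MPP KO (-0.17, SE 0.12, adjusted p = 0.266), and the groups overlapped.

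**Figure D3:**
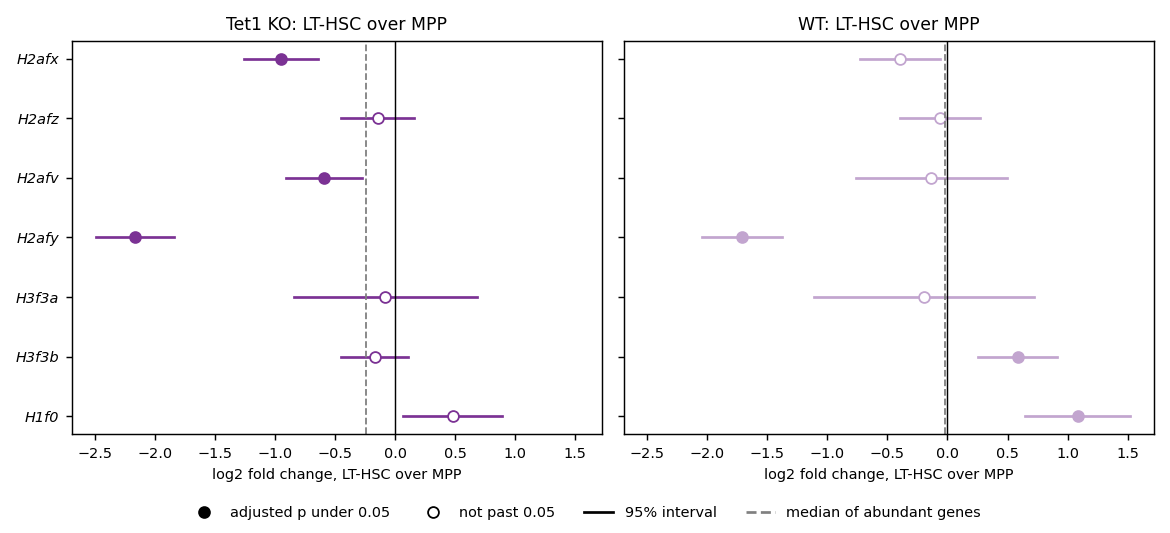
Log2 fold change of LT-HSC over MPP (horizontal axis) of the 7 genes in the Tet1 KO libraries (left) and the WT libraries (right), with 95% intervals from 2 against 2 libraries; filled points passed an adjusted p of 0.05 and the dashed line is the median of abundant genes (-0.24 in KO and -0.02 in WT). H2afy lay below -1.5 in both genotypes, H1f0 lay above 0 in both, and H3f3b was past the threshold above 0 in WT only, a difference that the interaction term called.

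H3f3a and H3f3b encode the same protein: 0 of 136 residues differed between their coding sequences, while 95 of 411 coding bases did. The longest stretch of coding sequence identical between them was 23 bases, shorter than a 50-base read. H3f3a has processed pseudogenes, copies of its spliced transcript elsewhere in the genome, that are much closer to it. The start of the coding sequence (bases 1 to 90 of GENCODE M21 transcripts, GRCm38) is shown because it carries this contrast; capitals mark bases that differ from H3f3a. H3f3a lies on chromosome 1, H3f3a-ps1 on X, H3f3a-ps2 on 16, H3f3c on 2 and H3f3b on 11.
H3f3a: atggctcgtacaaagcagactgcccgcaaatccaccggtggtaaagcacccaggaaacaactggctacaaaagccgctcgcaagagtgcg
H3f3a-ps1: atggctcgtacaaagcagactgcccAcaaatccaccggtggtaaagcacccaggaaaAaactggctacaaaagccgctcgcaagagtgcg
H3f3a-ps2: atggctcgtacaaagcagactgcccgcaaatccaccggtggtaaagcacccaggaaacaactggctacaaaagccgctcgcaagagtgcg
H3f3c: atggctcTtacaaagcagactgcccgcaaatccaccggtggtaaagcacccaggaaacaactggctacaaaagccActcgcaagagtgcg
H3f3b: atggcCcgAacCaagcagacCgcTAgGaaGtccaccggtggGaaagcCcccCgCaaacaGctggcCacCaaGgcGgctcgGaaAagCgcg
Over these 90 bases H3f3b differed from H3f3a at 20, H3f3a-ps1 and H3f3c at 2 each, and H3f3a-ps2 at 0. Over 411 aligned bases H3f3a-ps1, H3f3a-ps2 and H3f3c differed at 8, 5 and 4, with identical stretches of 110, 155 and 267 bases, long enough to hold whole reads.

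The counts of H3f3a (chr1:182730963-182744074, mm9) can be split with these copies. It shared 30.3% of its 50-base windows with 41 other annotated genes, and 14 of its processed pseudogenes had counts in both tables. It also overlaps Gm16067 on the other strand by 168 bp, a gene with 25 counts in the LT-HSC table and 41 in the MPP table. Windows shared with an antisense gene made up 8.76% for H2afy and 5.68% for H1f0, and whether counting used strand is not stated. H3f3a itself held 6.95% and 10.2% of the summed counts of gene and pseudogenes in LT-HSC KO, 5.63% and 10.7% in LT-HSC WT, 4.84% and 9.07% in MPP KO, and 5.74% and 9.11% in MPP WT. Replicate 2 was above replicate 1 for H3f3a in all 4 groups, by 1.53-fold in LT-HSC KO, 2.16-fold in LT-HSC WT, 1.88-fold in MPP KO and 1.63-fold in MPP WT. The 14 pseudogenes without H3f3a summed to 330 and 331 CPM in LT-HSC KO, 318 and 344 CPM in LT-HSC WT, 408 and 391 CPM in MPP KO, and 428 and 424 CPM in MPP WT. Replicate 2 was thus above replicate 1 for the pseudogenes in both LT-HSC groups and below it in both MPP groups. For the summed family the ratio of replicate 2 to replicate 1 was 1.04, 1.14, 1.00 and 1.03 in these groups, a sum in which H3f3a is a small part.

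Summed with its pseudogenes, H3f3a reached 354 and 369 CPM in LT-HSC KO, against 337 and 385 CPM in LT-HSC WT. The sum was 428 and 430 CPM in MPP KO and 454 and 466 CPM in MPP WT. The LT-HSC libraries lay below the MPP libraries in both genotypes. Refitted with these sums, an alternative chosen after the data were seen, H3f3a was lower in LT-HSC KO than in MPP KO (-0.39, adjusted p = 0.0249), and H3f3b with its pseudogene Gm6485 was no longer past the threshold between LT-HSC KO and WT (-0.47, adjusted p = 0.0601). H3f3b depended less on its copy, holding 79.7% to 86.2% of the summed counts.

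**Figure D4:**
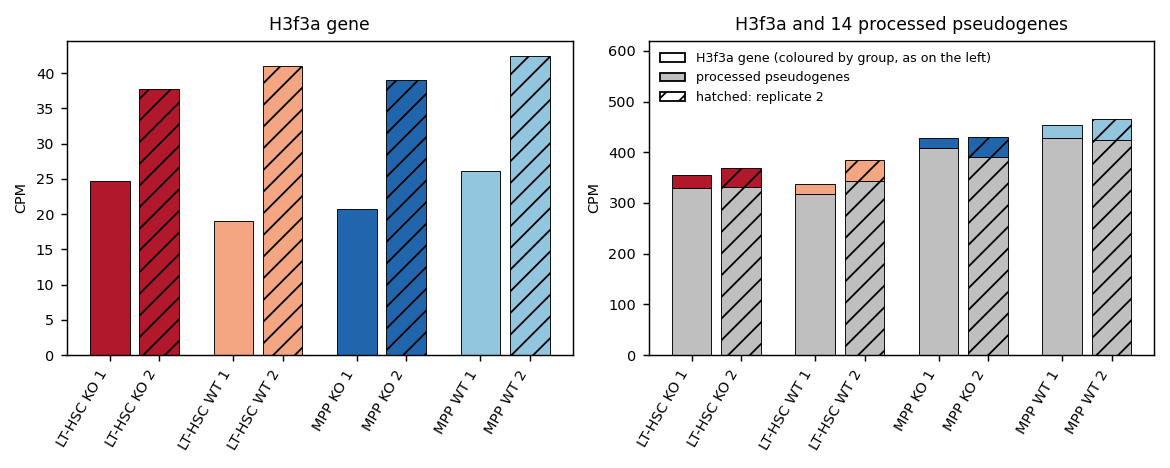
CPM (vertical axes, from 0) of the H3f3a gene alone (left) and stacked on its 14 processed pseudogenes in grey (right) in each of the 8 libraries, with replicate 2 hatched. Replicate 2 stood above replicate 1 in all 4 groups for the gene, by 1.53-fold to 2.16-fold, and the sums differed between replicates by 1.00-fold to 1.14-fold.

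The balance between the paired genes was compared as a share of counts within a library, which does not depend on scaling. By single genes, H3f3b held 95.8% and 93.5% of H3.3 counts in LT-HSC KO, 97.7% and 95.1% in LT-HSC WT, 96.4% and 93.6% in MPP KO, and 95.3% and 92.9% in MPP WT. Summed with pseudogenes, its share was 65.9% and 63.8% in LT-HSC KO, 73.5% and 70.4% in LT-HSC WT, 61.5% and 61.5% in MPP KO, and 59.1% and 58.9% in MPP WT. The 4 LT-HSC libraries were then all above the 4 MPP libraries, with a mean of 68.4% ± 4.36 in LT-HSC and 60.2% ± 1.45 in MPP (SD, n = 4 each). The difference was 8.2 points (exact permutation test, two-sided, unadjusted p = 0.0286, the smallest this design allows). This summed share was added after the data were seen, and the test takes KO and WT libraries of a population together. By single genes the difference was 0.976 points and did not pass (exact permutation test, two-sided, p = 0.486). Between KO and WT, the exact permutation test of 2 against 2 libraries cannot go below p = 0.333. On the summed counts, KO minus WT was -7.06 points in LT-HSC and 2.5 points in MPP, with no overlap in either population.

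H2afz and H2afv differ at 3 of 128 residues and at 81 of 387 coding bases. The H2afz share of the H2A.Z counts was 66.1% and 61.5% in the LT-HSC KO libraries and 46.2% and 63.6% in the LT-HSC WT libraries. It was 55.5% and 57.6% in the MPP KO libraries and 50.9% and 55.0% in the MPP WT libraries. The LT-HSC WT libraries differed from each other by more than the groups did. LT-HSC averaged 59.3% ± 8.96 and MPP 54.8% ± 2.79 (SD, n = 4 each; exact permutation test, two-sided, p = 0.4). Without LT-HSC WT replicate 1 the difference of 4.59 points grew to 8.97 points (exact permutation p = 0.0286). None of the 6 tests of shares by single genes passed after Benjamini-Hochberg adjustment (0.667 for each). H2afz shared 69.6% of its 50-base windows with other annotated genes, chiefly 60.8% with Tmcc1, and its processed pseudogene Gm13007 had 12 to 35 counts per library. Tmcc1 had 722 counts over the LT-HSC libraries and 1689 over the MPP libraries. Summed counts of H2afz were 777 in LT-HSC KO, 825 in LT-HSC WT, 1855 in MPP KO and 2004 in MPP WT. The H2afz levels, contrasts and shares are therefore open to splitting with Tmcc1, the extent of which was not tested. H2afv shared 0 windows, so its counts are the ones least open to splitting.

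At the end of the transcript, H2afx was the 1 gene of the 7 with the stem-loop that ends replication-dependent histone transcripts. The site began 47 bases after the stop codon and is shown because it sets H2afx apart from the other 6 genes; capitals mark the stem and loop.
H2afx: caaaGGCCCTTTTAAGGGCCacca
In the 7 genes, the histone stem-loop motif was searched for after the stop codon of the longest coding transcript, on the transcript strand. For the background, whole coding transcripts were searched, which is a wider search. Such a site was found there in 46 of 67 coding genes with Hist names and in 57 of 21877 coding genes, or 0.261%. The libraries were made from poly(A) RNA, and how far they hold H2afx transcripts that end in the stem-loop was not tested. After the stop codon, the longest coding transcripts of H2afz, H2afv, H3f3a, H3f3b and H1f0 each hold 1 or more AATAAA sites, the usual polyadenylation signal. Those of H2afx and H2afy hold 0. The related sequence ATTAAA was found at 1 site in H2afx and 0 in H2afy. The last AATAAA began 121 bases from the end in H2afz and 93 in H3f3b, against 22 to 29 in H2afv, H3f3a and H1f0. Whether any of these sites is used was not tested.

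Promoters (RefSeq, GRCm38.p6, 250 bases before to 50 after the start) were found for 6 of the 7 genes; H2afx has none in the table. Those of H3f3b, H2afy and H1f0 are shown because these 3 genes were called in LT-HSC KO and in the WT contrast of the populations. Each was searched on both strands for the motif CCAAT and for the motif TATAAA, with matches in capitals. They lie at chr11:116024455-116024754 (minus strand) for H3f3b, chr13:56135501-56135800 (minus strand) for H2afy and chr15:79027962-79028261 (plus strand) for H1f0.
H3f3b: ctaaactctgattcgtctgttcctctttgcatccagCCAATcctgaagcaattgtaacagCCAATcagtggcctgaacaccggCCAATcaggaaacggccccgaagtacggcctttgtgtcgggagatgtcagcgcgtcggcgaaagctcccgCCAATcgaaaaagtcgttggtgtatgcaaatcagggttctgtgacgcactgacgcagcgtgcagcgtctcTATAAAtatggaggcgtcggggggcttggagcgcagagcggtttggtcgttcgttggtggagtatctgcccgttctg
H2afy: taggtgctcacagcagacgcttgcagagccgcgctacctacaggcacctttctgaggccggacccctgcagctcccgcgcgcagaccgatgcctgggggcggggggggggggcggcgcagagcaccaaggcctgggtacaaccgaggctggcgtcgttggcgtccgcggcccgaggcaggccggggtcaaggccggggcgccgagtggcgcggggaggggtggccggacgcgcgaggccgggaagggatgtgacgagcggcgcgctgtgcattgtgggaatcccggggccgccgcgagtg
H1f0: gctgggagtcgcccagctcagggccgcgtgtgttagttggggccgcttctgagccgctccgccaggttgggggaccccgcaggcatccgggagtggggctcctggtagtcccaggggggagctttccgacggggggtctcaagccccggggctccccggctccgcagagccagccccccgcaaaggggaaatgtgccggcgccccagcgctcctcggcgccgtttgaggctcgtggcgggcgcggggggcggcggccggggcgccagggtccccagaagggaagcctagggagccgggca
H3f3b held 4 CCAAT and 1 TATAAA, and H2afy and H1f0 held 0 of either. H2afv held 4 CCAAT, H2afz 3 and H3f3a 1. Among 32851 promoters of this length, 37.4% held CCAAT, 11.7% held 2 or more and 13.6% held TATAAA. The promoter of H3f3b had 55.0% G and C, against 60.7% to 75.0% in the other 5 and a median of 52.7% over all promoters.

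The genes that handle these histones were followed as lists in the same fits, to be read against the 10.9% of all genes called lower and 22.5% called higher in LT-HSC KO. In LT-HSC KO, 1 of 9 H3.3 chaperones was lower and 0 higher, namely Ubn1 (-0.54, SE 0.15), a subunit of the HIRA complex that deposits H3.3. Of 15 H2A.Z exchange genes, 1 was lower and 0 higher, Kat5 (-0.66, SE 0.21), the acetyltransferase of the TIP60 complex. Of 9 genes that handle macroH2A and linker histones, 3 were lower and 0 higher: Parp9 (-0.87, SE 0.21), Hmgn2 (-0.77, SE 0.25), a nucleosome-binding protein that competes with H1, and Parp1 (-0.59, SE 0.19), the main ADP-ribosyl transferase at DNA breaks. The linker variant H1fx was also lower, at 18.5 and 21.9 CPM in LT-HSC KO, against 32.5 and 42.2 CPM in LT-HSC WT (-0.88, SE 0.23, adjusted p = 0.0175), the 1 of 5 other variant histone genes called. Those 5 include H3f3c, which is also among the H3f3a processed pseudogenes above.

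The share of H2AX kinases and readers called was near that of all genes. Of 16 kinases and readers, 3 were higher (22.5% of all genes) and 0 lower (10.9% of all genes) in LT-HSC KO: Brca1 (0.61, SE 0.19), Prkdc (0.60, SE 0.16) and Atr (0.57, SE 0.17), the last 2 being kinases that phosphorylate H2AX. Atr had 81.0 and 102 CPM in LT-HSC KO, against 57.8 and 64.9 CPM in LT-HSC WT. Of 5 replication-dependent linker histone genes, Hist1h1b was higher, at 21.1 and 22.1 CPM in LT-HSC KO, against 8.21 and 12.1 CPM in LT-HSC WT (1.099, SE 0.29), and 0 were lower. Replication-dependent histone transcripts end mostly without a poly(A) tail. Counts from poly(A) RNA may therefore cover only part of them, here and below, which was not tested. Asf1b (0.63, SE 0.19) was the 1 called of 11 chaperones listed as replication-coupled, a list that also holds Hjurp, which is not tied to replication. Of 20 proliferation genes, 4 were higher, a share near the 22.5% of all genes, and 0 were lower; those with the widest change were Rrm2 (1.39, SE 0.28) and Ccnb1 (1.15, SE 0.25), with a summed level of 4687 and 4630 CPM in LT-HSC KO, against 4349 and 4070 CPM in LT-HSC WT. The 12 LT-HSC markers summed to 2169 and 2206 CPM in LT-HSC KO, against 3110 and 3219 CPM in LT-HSC WT, and 5 were lower. The median log2 fold change was 0.28 over the H2AX list, -0.25 over the macroH2A and linker list, -0.08 over the H2A.Z list and 0.05 over the H3.3 list, against 0.03 over all genes and -0.18 over abundant genes. Set against abundant genes, the macroH2A and linker list was the 1 of these 4 with its median below.

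**Figure D5:**
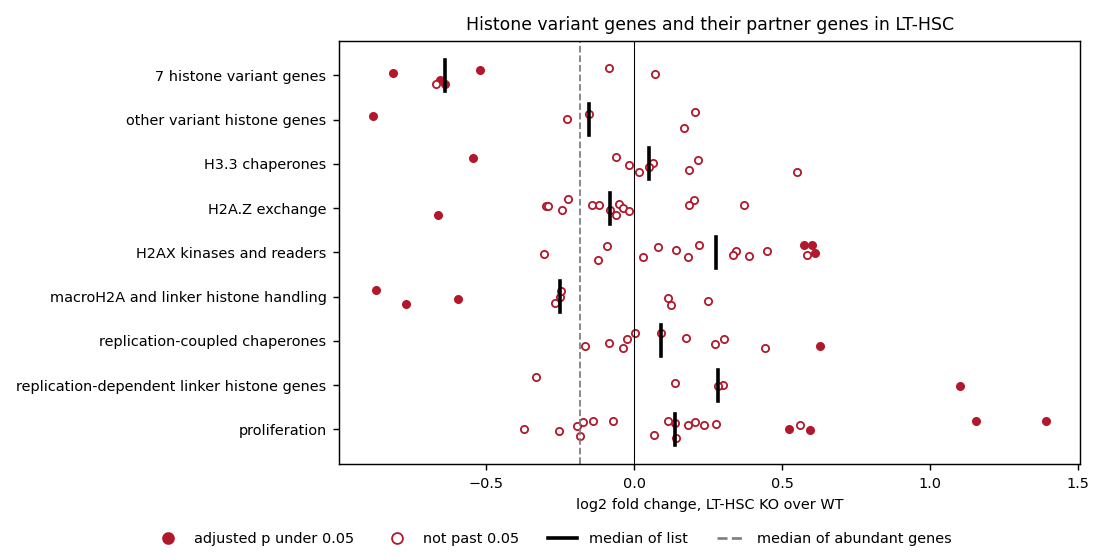
Log2 fold change of LT-HSC KO over WT (horizontal axis) of the 7 genes and of the genes in 8 related lists, 1 point per gene, filled where the adjusted p was under 0.05; the black bar is the median of a list and the dashed line the median of abundant genes (-0.18). The called genes lay below 0 in the top 4 lists and in the macroH2A and linker histone list, and above 0 in the other 4.

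In MPP KO, none of the H3.3, H2A.Z, H2AX or macroH2A lists had a called gene, and 0 of 20 proliferation genes were called by edgeR, where 2.46% of all genes were called lower and 4.74% higher. Of the 5 replication-dependent linker histone genes, 3 were lower, Hist1h1a (-0.55, SE 0.09), Hist1h1b (-0.47, SE 0.09) and Hist1h1d (-0.47, SE 0.09). Of the 11 chaperones listed as replication-coupled, Nap1l1 was lower (-0.37, SE 0.07). In WT, all 5 replication-dependent linker genes were lower in LT-HSC than in MPP (16.9% of all genes), led by Hist1h1b (-1.85, SE 0.21), the opposite direction from H1f0 and from H1fx (1.38, SE 0.18). For these 5 genes too, counts from poly(A) RNA may cover only part of the transcripts. Hells, a remodeller linked to macroH2A, was lower in LT-HSC WT as well (-1.03, SE 0.13), as was Brca1 (-0.76, SE 0.14). H2afj, another H2A variant, was lower in LT-HSC than in MPP in KO (-0.99, SE 0.13) and in WT (-0.90, SE 0.14).

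For each of the 7 genes, the genes with the most similar profile over the 8 libraries were found among 8456 genes with a mean of at least 20 CPM, by the root mean square distance between log2 CPM values centred on each gene. The nearest to H2afy were H2-Ob (0.107), Parp8 (0.109) and Cd34 (0.122), over a range of 2.47 log2 units of H2afy itself. Those nearest to H1f0 were Fosl2 (0.112), Socs3 (0.127) and Irak3 (0.134), over a range of 1.76. Rac1 (0.0686), Celf2 (0.0779) and 5730590G19Rik (0.0786) were nearest to H2afx. Mrps22 (0.0684), Capn5 (0.0688) and Nek4 (0.0695) were nearest to H3f3b, and Glt25d1 (0.0948), Gusb (0.0968) and Ung (0.108) to H2afv. H3f3a was nearest to Prdx1 (0.0573), Gm12504 (0.115) and Gm8623 (0.119), over a range of 1.14 set mostly by the gap between replicates 1 and 2. H2afz, which varied over 0.38 log2 units in all, was nearest to Uck1 (0.0529), Tprn (0.0603) and Golt1b (0.0656). All distances are over the same 8 libraries.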

How the data were processed

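Per the labels, 8 poly(A) libraries of paired 50 bp reads were made from sorted cells. The build mm9, CASAVA and TopHat are named, without versions, per the submitters' processing notes. The read counter, the annotation and the strand protocol were not given in the sources used here. The authors deposited 1 table per population with raw counts per Ensembl gene and library. The same tables hold the authors' log2 fold change, log2 CPM, likelihood ratio score and p-value with its FDR, per the file headers. Columns were matched to samples by population, genotype and replicate, and 0 columns of values were left unmatched.

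The deposited counts were fitted with edgeR 4.0.16 in R 4.3.3 (filterByExpr, TMM, quasi-likelihood test, Benjamini-Hochberg adjusted p under 0.05), per population for KO against WT, and over genes in both tables for LT-HSC against MPP in KO and in WT and for the interaction. Levels are CPM over all counts in a library. Standard errors are the fold change over the square root of the test statistic. A count of 0 would allow up to 0.547 to 0.603 CPM in an LT-HSC library and 0.24 to 0.251 CPM in an MPP library, taking 3 counts as the floor; floors cover counting error only. Shares were compared with exact permutation tests. DESeq2 1.42.0 served as another tool. Transcript windows, coding sequence and 3' ends came from GENCODE M21 (GRCm38) and promoters from RefSeq (GRCm38.p6); no coordinates were converted.

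Background counts per kb came from 655 genes with a span of at least 100 kb and at most 1 CPM in MPP WT. Alternatives were other scalings, filters, tools and samples in the fit, each library left out, a replicate block, and, added after the data were seen, pooling with processed pseudogenes and subtraction of background by span. The 7 genes, the lists and the tests were chosen with earlier results of these data known. Named were all 7 genes, up to 4 called genes of a list, ranked by fold change, and the 3 nearest profiles per gene; levels of named list genes at other comparisons, pseudogenes and Y-linked genes were picked with their values known. The procedure was tested on simulated data with 200 changed genes.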

Additional observations from a re-analysis of the deposited data

Results flagged for a closer look

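The test that set these results apart is the interaction of population and genotype over all 8 libraries (edgeR quasi-likelihood test with Benjamini-Hochberg adjustment), which asks whether the log2 fold change of KO over WT differs between LT-HSC and MPP; its value is the contrast in LT-HSC minus that in MPP. Of the 7 histone genes, H3f3b was the 1 called, at -0.68 (adjusted p = 0.0128), from -0.52 in LT-HSC and 0.15 in MPP. H1fx, the linker variant, had -1.105 (adjusted p = 0.0148), from -0.88 in LT-HSC and 0.21 in MPP.

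The other called genes of the related lists had interactions above 0. Hist1h1b had 1.57 (adjusted p = 0.00537), from 1.099 in LT-HSC and -0.47 in MPP, the 1 gene here called in opposite directions in the 2 populations. Hist1h1a had 0.84 (adjusted p = 0.0259), from 0.30 in LT-HSC and -0.55 in MPP. Counts of Hist1h1b and Hist1h1a come from poly(A) RNA and may cover only part of their transcripts. Among the H2AX kinases and readers the values were 0.93 for Atr (adjusted p = 0.014), 0.72 for Prkdc (adjusted p = 0.0146), 0.70 for Nbn (adjusted p = 0.0319) and 0.61 for Rad50 (adjusted p = 0.0279). Hells had 0.52 (adjusted p = 0.0396). The proliferation genes Rrm2, Ccnb1 and Ccna2 had 1.24, 1.09 and 0.63 (adjusted p = 0.0327, 0.0331 and 0.0309). Erythroid and stromal markers were higher in LT-HSC KO at the same time, and their part in these values was not tested.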

How the results depend on the processing

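The replicate block, which treats libraries with the same number as pairs, gave more calls. They were 8826 of 15684 genes tested between KO and WT in LT-HSC and 7234 of 14902 in MPP. Between LT-HSC and MPP in WT they were 7819 of 14660, and for the interaction 6903 of 16551. Without the block the calls were 5245, 1073, 5022 and 3663. Under the block 5 of the 7 genes were called in MPP (H3f3b higher, and H2afx, H2afv, H2afy and H1f0 lower). In the interaction 3 of the 7 were called (H3f3b, H2afx and H2afy). Both counts are to be read against the large part of all genes called under the block. Differences between replicates 1 and 2 correlated between KO and WT across genes (r = 0.704 in LT-HSC and 0.881 in MPP) and also between populations (0.633 to 0.689). The labels do not say that the numbers mark pairs, so this is a hint from the data only.

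Between LT-HSC KO and WT, 1 of the 7 genes was called relative to abundant genes, and 0 after background subtraction by span, with 2137 genes called. That subtraction gave 5432 genes between LT-HSC KO and MPP KO and 2203 for the interaction. In MPP, library size alone called 1 of the 7 genes (H2afy), no filter left 575 genes called and 1 fit over all libraries 500. Called genes that were higher in LT-HSC KO than in WT made up 67.3% in the main scaling and 81.2% relative to abundant genes; those shares were 65.9% and, by library size alone, 48.6% in MPP KO against WT, 53.5% against 64.1% by library size and 70.6% relative to abundant genes for LT-HSC KO against MPP KO, and 61.6% against 76.4% relative to abundant genes for the interaction.

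H2afz changed sign with the scaling, without passing the threshold. It was at 0.10 relative to abundant genes and 0.093 after background subtraction between LT-HSC KO and WT; at 0.00295 pooled with its pseudogene between the WT populations; at 0.00128 by library size, 0.0937 relative to abundant genes and 0.0537 after subtraction between the KO populations; and at 0.0798, 0.17 and 0.13 under these 3 in the interaction. Between the KO populations H3f3a was at 0.0624, 0.16 and 0.0746 under the same 3, and H3f3b at 0.0678 relative to abundant genes and 0.0291 after subtraction. None of these passed, and the cause was not tested.

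Leaving out 1 library at a time left 2325 to 6756 genes and 0 to 4 of the 7 called between LT-HSC KO and WT, 0 to 268 genes and 0 of the 7 in MPP, 2465 to 7070 genes between the WT populations, 5370 to 6585 genes between the KO populations, and 1132 to 4237 genes and 0 to 2 of the 7 for the interaction. The fold change crossed 0 for H2afz (-0.24 to 0.063) and H3f3a (-0.36 to 0.61) between LT-HSC KO and WT, for H3f3a in MPP (-0.65 to 0.27), for H2afz (-0.21 to 0.0271), H3f3a (-0.81 to 0.20) and H2afv (-0.61 to 0.18) between the WT populations, for H3f3a (-0.50 to 0.44) between the KO populations, and for H2afz (-0.14 to 0.13), H3f3a (-0.26 to 0.79) and H2afv (-0.71 to 0.0477) in the interaction. A group left with 1 library was assumed to vary like the others. The H3f3b share of H3.3 counts in MPP KO minus WT moved between -0.433 and 2.36 points, and the H2afz share in LT-HSC minus MPP between 2.36 and 8.97 points, with the highest past the threshold. Pooled with pseudogenes, the H3f3b share in LT-HSC minus MPP was 8.2 points.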
